A study of Homo sapiens with 14 samples.

Results

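The interleukin-1 family comprises secreted cytokines and the receptors that read them. Of its genes, 9 were described here: the ligands IL1A, IL1B, IL33 and IL18, the receptor antagonist IL1RN, and the receptor chains IL1R1, IL1R2, IL1RAP and IL1RL1. They were found by gene symbol among the 58219 genes of the count table, and all 9 were present. The set was selected on measured values: it was chosen by the levels of IL33 and IL1B in the siPAX8, siSOX17 and control libraries, where both genes were taken to respond in opposite ways to loss of PAX8 and of SOX17. The data bear that out for IL33 alone. IL1B was higher in the PAX8 knockdown but was not lower in the SOX17 knockdown. Values of those comparisons are therefore given as a description, with no test.

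RNA was sequenced from OVCAR4, an established human cell line of high-grade serous ovarian cancer, after reverse transfection of 300000 cells with 120 nM of small interfering RNA (siRNA), which directs the degradation of matching transcripts. Medium was renewed at 24 hours and RNA was taken at 72 hours. There were 7 groups of 2 libraries: siNT1 and siNT2 (separate non-targeting pools, together 4 control libraries), siPAX8, siSOX17, siMECOM and siWT1 (a pool against the named transcription factor), and siDual (the PAX8 and SOX17 pools together). Every library comes from the same line and carries a pool, so no untransfected cells were compared, and the labels do not say how the 120 nM was split in siDual. Whether replicate libraries stem from separate cultures is not stated, and p-values therefore measure only the spread between these libraries, which may be technical. Tests of siDual, siMECOM and siWT1 reuse the control libraries that entered the choice of the set. The siDual tests also involve the PAX8 and SOX17 pools of that choice. Their p-values for IL33 and IL1B, above all in siDual, are therefore not independent of it.

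Total counts were 40832825 to 49803860 per library. The targeted transcripts stood at 17.4% of control for PAX8 in siPAX8, 13% for SOX17 in siSOX17 and 9.74% for MECOM in siMECOM. In siDual they were 25.3% for PAX8 and 15.2% for SOX17. WT1 was at only 0.394 ± 0.0451 CPM (SD, n = 4) in the controls, where CPM is the read count scaled to library size. In siWT1 its mean was 0.00957 ± 0.0135 CPM (SD, n = 2). The fold change of the model put it at 3.08% of control, a value that rests on almost no reads in siWT1. The pools also touched each other's targets. The log2 fold change of MECOM was -1.54 in siSOX17, -1.40 in siDual, -0.41 in siPAX8 and -0.35 in siWT1. That of SOX17 was 1.05 in siMECOM (207% of control), -0.46 in siPAX8 and 0.08 in siWT1. That of PAX8 was -0.83 in siWT1, 0.40 in siSOX17 and -0.17 in siMECOM. That of WT1, at its low level, was -0.72 in siPAX8, -1.03 in siSOX17, -1.31 in siDual and 0.71 in siMECOM. The epithelial genes EPCAM (190 to 276 CPM) and KRT8 (1179 to 9463 CPM) were present in every library. They belong to a list of 16 epithelial and serous ovarian markers. In it ESR1 (at most 0.572 CPM), WT1 (at most 0.779) and MSLN (at most 1.01) were low. That list summed to 4855 to 5625 CPM in the controls, 9157 to 11617 in siPAX8 and 14386 to 14624 in siSOX17. In siDual it summed to 19383 to 22245 CPM, in siMECOM to 5164 to 5961 and in siWT1 to 4336 to 4514. Of 18 leukocyte markers, 16 stayed under 1 CPM in all libraries, with PTPRC (CD45) at most 0.133 CPM and CD14 at most 0.421 CPM. The other members of that list, CSF1R and CD68, were detected, and the list summed to 22.4 to 27.1 CPM in the controls, 54.1 to 60.7 in siPAX8, 55.5 to 59.0 in siSOX17, 70.1 to 84.0 in siDual, 18.7 to 19.0 in siMECOM and 10.6 to 12.4 in siWT1. A list of 15 endothelial and fibroblast markers summed to 46.4 to 55.6 CPM in the controls, 87.1 to 92.1 in siPAX8, 69.3 to 73.7 in siSOX17, 83.6 to 90.6 in siDual, 36.1 to 38.1 in siMECOM and 34.0 to 36.1 in siWT1. Genes of the mitochondrial chromosome took 5.34 to 6.13% of counts in the controls and 7.91 to 11% in the knockdown libraries. The part of these shifts in the results that follow was not tested. In bulk RNA, fewer cells that express a gene and less of its RNA per cell cannot be told apart.

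As background, IL-1 alpha (IL1A) and IL-1 beta (IL1B) bind IL1R1, which pairs with the accessory chain encoded by IL1RAP and signals through MYD88 and IRAK kinases to NF-kB. IL1RN occupies IL1R1 without signalling, and IL1R2 is a decoy that binds ligand but lacks the signalling domain. IL-33 acts through the receptor ST2, encoded by IL1RL1, and also needs IL1RAP. IL-1 beta and IL-18 are made as precursors that caspase-1 cleaves in inflammasomes, while IL-33 is stored in the nucleus of epithelial cells and acts as an alarm signal when cells are damaged.

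The members fall into clusters of the genome. On chromosome 2 (hg38) IL1A lies at 112773915 to 112784590 and IL1B at 112829751 to 112836903, both on the minus strand, and IL1RN lies at 113107214 to 113134016 on the plus strand. PAX8 itself begins at 113215997, which is 82.0 kb beyond IL1RN, 379 kb beyond IL1B and 431 kb beyond IL1A. The receptor genes IL1R2 (101991844 to 102028544), IL1R1 (102064544 to 102179874) and IL1RL1 (102311502 to 102352037) lie together on the same chromosome. IL33 is on chromosome 9 at 6215786 to 6257983, IL18 on chromosome 11 at 112143251 to 112164117 and IL1RAP on chromosome 3 at 190514051 to 190659750. The gene identifiers of the ligands in the table were ENSG00000115008.5 (IL1A), ENSG00000125538.11 (IL1B), ENSG00000137033.11 (IL33) and ENSG00000150782.11 (IL18).

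The stretches just upstream of IL1A, IL1B and IL33 are shown because these ligands differed most between siPAX8 and siSOX17 (log2 differences of 2.90, 3.83 and 9.53). They are from RefSeq promoter windows (GRCh38.p14, the hg38 assembly) and end where the deposited gene model begins. They cover chr2:112784591-112784743 and chr2:112836904-112837029 on the minus strand and chr9:6215557-6215785 on the plus strand, in that order. Capitals mark matches on either strand to TATAAA (the TATA box), AACAAT (a core bound by SOX factors) or TTGCNNAA (a C/EBP site).
IL1A: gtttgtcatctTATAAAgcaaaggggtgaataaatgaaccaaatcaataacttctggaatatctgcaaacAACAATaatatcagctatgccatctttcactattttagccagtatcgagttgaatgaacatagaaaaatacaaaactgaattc
IL1B: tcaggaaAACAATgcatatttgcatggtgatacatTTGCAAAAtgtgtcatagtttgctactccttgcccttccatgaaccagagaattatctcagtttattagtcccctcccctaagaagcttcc
IL33: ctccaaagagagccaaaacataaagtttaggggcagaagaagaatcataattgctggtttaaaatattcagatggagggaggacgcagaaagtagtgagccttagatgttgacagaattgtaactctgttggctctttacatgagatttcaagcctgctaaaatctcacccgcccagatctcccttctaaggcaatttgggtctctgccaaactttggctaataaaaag
IL1A has a TATAAA and an AACAAT, IL1B has an AACAAT and a TTGCNNAA, and IL33 has no match to any motif searched. The matches do not overlap each other. Of 35116 RefSeq windows of 300 bases, 11.5% hold TATAAA, 10.1% hold AACAAT and 10.5% hold TTGCNNAA. The search also covered TGANTCA (AP-1, 7.71% of windows), GTCACGC (a paired-domain core, 2.52%) and the NF-kB consensus (5.91%). The IL1A windows hold 2 matches to TGANTCA closer to or beyond the start site, and no window of the members holds GTCACGC or the NF-kB consensus. Windows were listed for 8 of the 9 members, 17 windows in all. A match is a string of letters and says nothing of binding.

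Levels were compared between genes after division by gene length, as CPM per kilobase. In the controls IL1R1 had the highest level of the 9 genes, at a mean of 39.2 CPM per kilobase (37.9 to 41.1 over the 4 libraries), above 93.3% of the tested genes. IL18 (19.4, range 17.1 to 22.4) and IL1R2 (19.2, range 18.0 to 20.7) followed, and their ranges overlapped. IL1RAP (0.888), IL1RN (0.841), IL33 (0.714) and IL1A (0.672) formed a low group whose ranges overlapped in part, and IL1B was the lowest of the measured ligands at 0.158 CPM per kilobase (0.114 to 0.206). IL1RL1 was barely detected. It had 15 counts over all 14 libraries, was at 0 in 7 of them and never exceeded 5. A count of 0 allows a level of up to 0.0572 to 0.0798 CPM, from 3 counts per library, and covers counting error only. IL1RL1 did not pass the filter on low counts, so 8 of the 9 genes entered the tests. The IL1RL1 gene model also overlaps that of IL18R1 on the same strand.

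**Figure D1:**
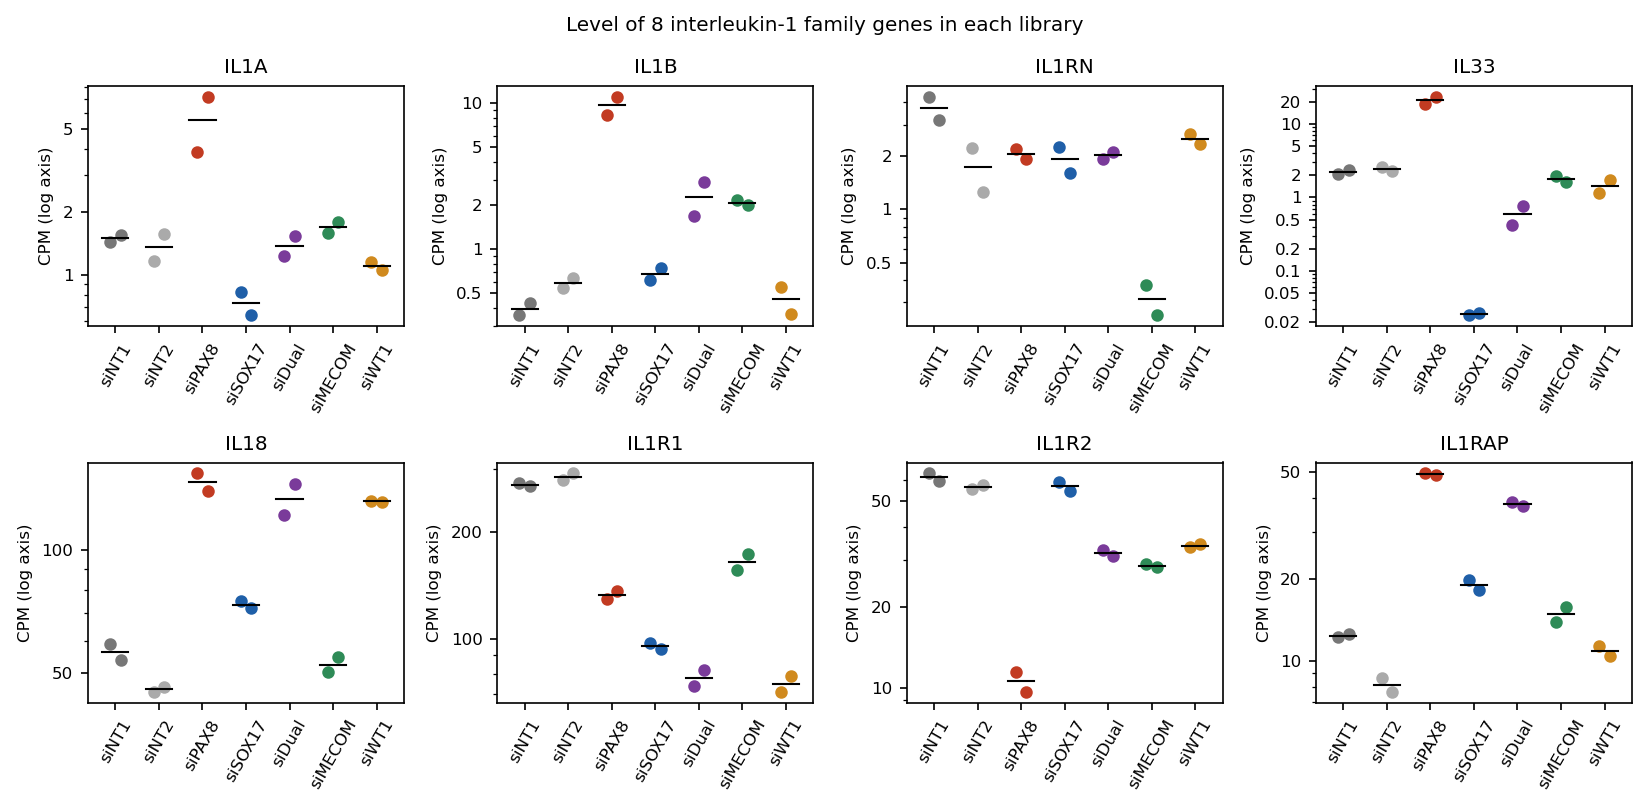
Level of 8 interleukin-1 family genes in CPM on log axes. Each point is 1 library, the line is the mean of the 2 libraries of a group, and the groups stand on the horizontal axis. IL33 ranges from 0.0249 CPM in siSOX17 to 23.3 CPM in siPAX8, and IL1RN stands apart in siMECOM at 0.253 and 0.374 CPM.

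Among the ligands, IL33 spanned the widest range. It was at 2.10 and 2.34 CPM in siNT1, 2.57 and 2.29 in siNT2, 18.8 and 23.3 in siPAX8 and 0.0249 and 0.0265 in siSOX17. The last values are a single count in each library, 1.10% of control (exact 95% interval from counting error, 0.133 to 4.00%). Both siPAX8 libraries lay above every other library and both siSOX17 libraries below every other one. IL33 was at 0.426 and 0.765 CPM in siDual, 50 counts in all, between the single knockdowns and below all 4 controls. Against the controls, the log2 fold change in siDual was -1.93 ± 0.24 (SE; adjusted p = 9.31e-07; edgeR, quasi-likelihood, Benjamini-Hochberg over all genes, as for every adjusted p here). That p-value, like those of IL33 in siWT1 and siMECOM below, is not independent of the choice of the set. The described values were 3.17 ± 0.14 in siPAX8 and -6.36 ± 0.46 in siSOX17. On the log2 scale, siDual differed by 1.25 ± 0.86 from the sum of the single changes.

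IL33 was also lower in siWT1, at 1.16 and 1.70 CPM, where its log2 fold change was -0.70 ± 0.19 (adjusted p = 0.00635). That call was lost without siWT1 replicate 1 (-0.45, adjusted p = 0.145), and over the 21 alternatives the adjusted p ran from 0.000521 to 0.145. In siMECOM it was at 1.96 and 1.64 CPM (-0.38 ± 0.18, adjusted p = 0.128), which did not pass. In the order of group means, siPAX8 was followed by siNT2, siNT1, siMECOM, siWT1, siDual and siSOX17. The libraries of siNT2 and siNT1 overlapped, as did those of siMECOM and siWT1.

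IL1B was nearly absent from the control cells and high in siPAX8. Its levels were 0.354 and 0.430 CPM in siNT1, 0.541 and 0.638 in siNT2, 8.37 and 11.1 in siPAX8 and 0.622 and 0.743 in siSOX17. The siSOX17 libraries overlapped those of siNT2. IL1B was at 1.70 and 2.88 CPM in siDual and 2.18 and 2.01 in siMECOM, above all 4 controls in each case and overlapping each other. It rose in siDual (log2 fold change 2.26 ± 0.24, adjusted p = 1.4e-07) and in siMECOM (2.11 ± 0.24, adjusted p = 1.24e-06). In siWT1 it stood at 0.553 and 0.364 CPM, within the range of the controls (-0.07 ± 0.31, adjusted p = 0.881). The set was chosen by IL1B as well, so these p-values, above all in siDual, are not independent of that choice. As a description, the changes were 4.33 ± 0.20 in siPAX8 and 0.50 ± 0.31 in siSOX17. IL1B in siDual was 2.07 ± 0.21 log2 units lower than in siPAX8, and -2.56 ± 0.38 from the sum of the single changes, while siSOX17 alone was not below the controls.

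IL1A, the neighbour of IL1B, shared the direction of IL33 in the SOX17 knockdown but changed far less than IL33 did. It was at 1.44 and 1.54 CPM in siNT1, 1.16 and 1.56 in siNT2, 3.87 and 7.13 in siPAX8 and 0.821 and 0.637 in siSOX17. The siPAX8 libraries were above and the siSOX17 libraries below all others, although the siPAX8 pair differed from each other more than any other pair of this gene. Described as log2 fold changes, these were 1.94 ± 0.20 and -0.96 ± 0.29. In siDual it returned to 1.22 and 1.53 CPM (-0.04 ± 0.25, adjusted p = 0.903), within the control range. IL1A did not pass in siMECOM (1.58 and 1.79 CPM, 0.25 ± 0.23, adjusted p = 0.45) or siWT1 (1.14 and 1.05 CPM, -0.37 ± 0.25, adjusted p = 0.252).

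IL18, the most abundant ligand, was high in siPAX8, siDual and siWT1. Its control levels were 53.8 and 58.9 CPM in siNT1 and 45 and 46.3 in siNT2. It reached 154 and 139 CPM in siPAX8, 122 and 145 in siDual and 132 and 131 in siWT1. The siDual range overlapped those of siPAX8 and siWT1, while siPAX8 lay above siWT1. The siSOX17 libraries, at 75.1 and 71.9 CPM, lay between them and the controls. IL18 rose in siDual (1.39 ± 0.07, adjusted p = 9.6e-12) and siWT1 (1.37 ± 0.07, adjusted p = 5.79e-11). In siMECOM it was at 50.3 and 54.6 CPM, within the control range (0.05 ± 0.08, adjusted p = 0.669). Described only, the changes were 1.53 ± 0.07 in siPAX8 and 0.54 ± 0.08 in siSOX17. The gene AP002884.3 overlaps IL18 on the opposite strand, and the strand used in counting is not given in the sources used here. Its own log2 fold change was 0.55 ± 0.06 in siWT1 and -0.25 ± 0.07 in siDual.

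The antagonist IL1RN changed most in siMECOM. It was at 0.374 and 0.253 CPM there, 30 counts in all, against 4.29 and 3.19 in siNT1 and 2.22 and 1.25 in siNT2. Both siMECOM libraries lay below every other library. It fell by 3.03 ± 0.30 on the log2 scale (adjusted p = 2.2e-07), and its level was 11.4% of control (exact 95% interval, 7.63 to 16.5%). With siDual at 1.92 and 2.12 CPM (-0.34 ± 0.21, adjusted p = 0.192) and siWT1 at 2.65 and 2.34 CPM (-0.03 ± 0.20, adjusted p = 0.913), no call was made. The control pools themselves stood apart for IL1RN, by a log2 difference of 1.09 ± 0.24 (adjusted p = 0.0582). Against siNT1 alone, the log2 fold change of IL1RN in siDual vs controls became -0.88 (adjusted p = 0.00403), and without siNT2 replicate 2 it was -0.54 (adjusted p = 0.0276), in a range of 0.00403 to 0.716 over its alternatives. Against siNT1 or siNT2 alone, the described values were -0.86 and 0.23 in siPAX8 and -0.95 and 0.13 in siSOX17, so no direction is given for those groups.

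**Figure D2:**
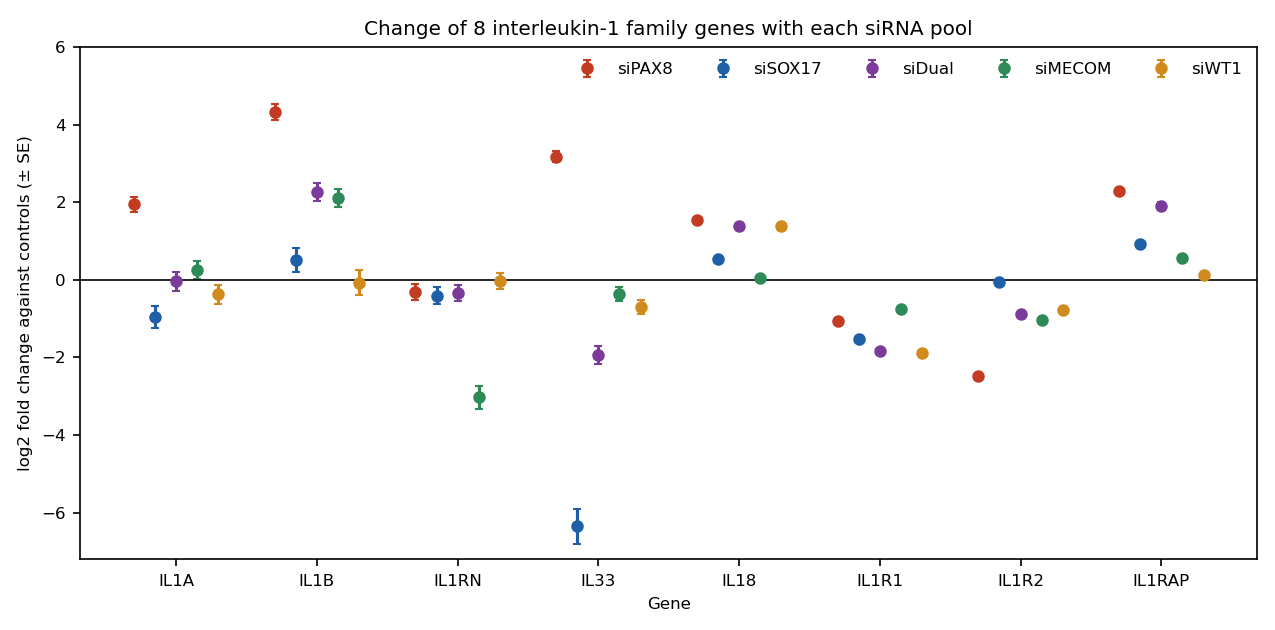
Log2 fold change of 8 genes against the mean of the control pools, from the edgeR model, with bars of 1 SE. Colours are the 5 pools. IL33 has the widest spread, from -6.36 in siSOX17 to 3.17 in siPAX8, and IL1R1 lies below 0 with every pool.

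Among the receptors, IL1R1 was lower with every targeting pool. The controls held 268 to 291 CPM, and no knockdown library exceeded 173 CPM. Levels were 156 and 173 CPM in siMECOM, 129 and 136 in siPAX8, 97.5 and 93.5 in siSOX17, 73.9 and 82.1 in siDual and 71.1 and 78.7 in siWT1. Of these groups only siDual and siWT1 overlapped. IL1R1 fell in siDual (-1.83 ± 0.08, adjusted p = 4.93e-13), siMECOM (-0.76 ± 0.07, adjusted p = 1.97e-07) and siWT1 (-1.89 ± 0.08, adjusted p = 2.75e-12). The described changes were -1.06 ± 0.07 in siPAX8 and -1.54 ± 0.08 in siSOX17. The non-coding IL1R1-AS1, which overlaps it on the opposite strand, had values of -0.90 ± 0.15, -1.37 ± 0.16, -1.86 ± 0.17, -0.70 ± 0.15 and -1.41 ± 0.15 in siPAX8, siSOX17, siDual, siMECOM and siWT1. Without strand, reads from the stretch where the pair overlaps cannot be told apart. Over all 14 libraries IL1R1-AS1 had 2438 counts and IL1R1 had 102295.

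IL1R2, the decoy, was lowest in siPAX8. It was at 55.4 to 63.7 CPM in the controls, 11.5 and 9.63 in siPAX8 and 59.1 and 54.9 in siSOX17. The siSOX17 libraries overlapped the controls. In siDual it stood at 32.7 and 31.1 CPM, which is above siPAX8 by 1.6 ± 0.09 log2 units and 1.65 ± 0.12 from the sum of the single changes. IL1R2 fell in siDual (-0.89 ± 0.08, adjusted p = 9.24e-09), in siMECOM (29.1 and 28.3 CPM, -1.04 ± 0.08, adjusted p = 5.21e-09) and in siWT1 (33.6 and 34.5 CPM, -0.79 ± 0.08, adjusted p = 1.46e-07). As a description, the changes were -2.48 ± 0.09 in siPAX8 and -0.05 ± 0.07 in siSOX17.

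The accessory chain IL1RAP was highest in siPAX8, at 49.3 and 48.8 CPM, and next in siDual, at 38.5 and 37.2 CPM. It was at 19.9 and 18.2 CPM in siSOX17, 13.9 and 15.7 in siMECOM and 11.3 and 10.4 in siWT1. The control pools differed, with 12.2 and 12.5 CPM in siNT1 and 8.64 and 7.66 in siNT2. IL1RAP rose in siDual (1.91 ± 0.08, adjusted p = 3.36e-13) and in siMECOM (0.56 ± 0.08, adjusted p = 3.86e-05). The siMECOM call was lost against siNT1 alone (0.26, adjusted p = 0.0555), the highest of its alternatives, whose lowest was 3.23e-07. In siWT1 it did not pass (0.11 ± 0.09, adjusted p = 0.321), except against siNT2 alone (0.42, adjusted p = 0.00388, in a range up to 0.783). Described changes were 2.29 ± 0.08 in siPAX8 and 0.92 ± 0.08 in siSOX17, and siDual was -1.30 ± 0.12 from their sum.

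Counted over the 8 genes tested, 3 rose and 3 fell in siDual, where 56.2% of all genes tested were called, 28.9% higher and 27.3% lower. In siMECOM 2 rose and 3 fell, against 32.6% of all genes (16.5% higher, 16.1% lower). In siWT1 1 rose and 3 fell, against 37.5% (17.7% higher, 19.8% lower). Called with a change of at least 2-fold were 5 in siDual (16.8% of all genes), 3 in siMECOM (6.75%) and 2 in siWT1 (6.31%). In siPAX8 7 of the 8 and in siSOX17 2 of the 8 were past 2-fold, counted by fold change alone. Of all genes, 14.5% and 14.6% were past 2-fold and also called. That is a stricter count, and nothing is read from the comparison. The siMECOM background of 6857 called genes became 4096 without siMECOM replicate 2, while 5 of the 8 were called there as before. Median log2 fold changes of the 8 were -0.19, -0.16 and -0.22, beside 0.00, 0.01 and 0.00 over all genes. In siPAX8 and siSOX17 the medians were 1.74 and -0.23, beside 0.00 and -0.01. These comparisons share the 4 control libraries, which also entered the choice of the set, and the siDual calls include IL33 and IL1B. Between the control pools 1 of the 8 was called, IL1RAP, higher in siNT1 than in siNT2 (0.60 ± 0.10, adjusted p = 0.0101), where 0.3% of genes were called (0.242% higher, 0.0571% lower, 0.0475% past 2-fold). An unadjusted p under 0.05 was found for 3 of the 8. That call was lost without siNT1 replicate 1 (0.62), siNT1 replicate 2 (0.58) or siNT2 replicate 2 (0.52), with an adjusted p from 0.00014 to 0.176 over 19 alternatives.

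Ratios within a library do not depend on its scaling. The per-length ratio of the signalling receptor IL1R1 to the decoy IL1R2 was 1.86 to 2.19 in the controls. It was 4.88 and 6.15 in siPAX8 and 0.716 and 0.738 in siSOX17, on either side of every control library. In siDual it was 0.979 and 1.15, in siMECOM 2.32 and 2.65 and in siWT1 0.917 and 0.989. The ratio of the antagonist IL1RN to IL1B was 1.87 to 11.5 in the controls, a wide range in which the siNT1 libraries (7.05 and 11.5) lay above the siNT2 libraries (1.87 and 3.91). It was below all controls in siPAX8 (0.165 and 0.249), siMECOM (0.120 and 0.163) and siDual (0.698 and 1.07). In siPAX8 IL1RN itself lay within the control range, while in siMECOM both genes were outside it. In siSOX17 (2.04 and 3.42) and siWT1 (4.56 and 6.11) the ratio was within the control range.

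**Figure D3:**
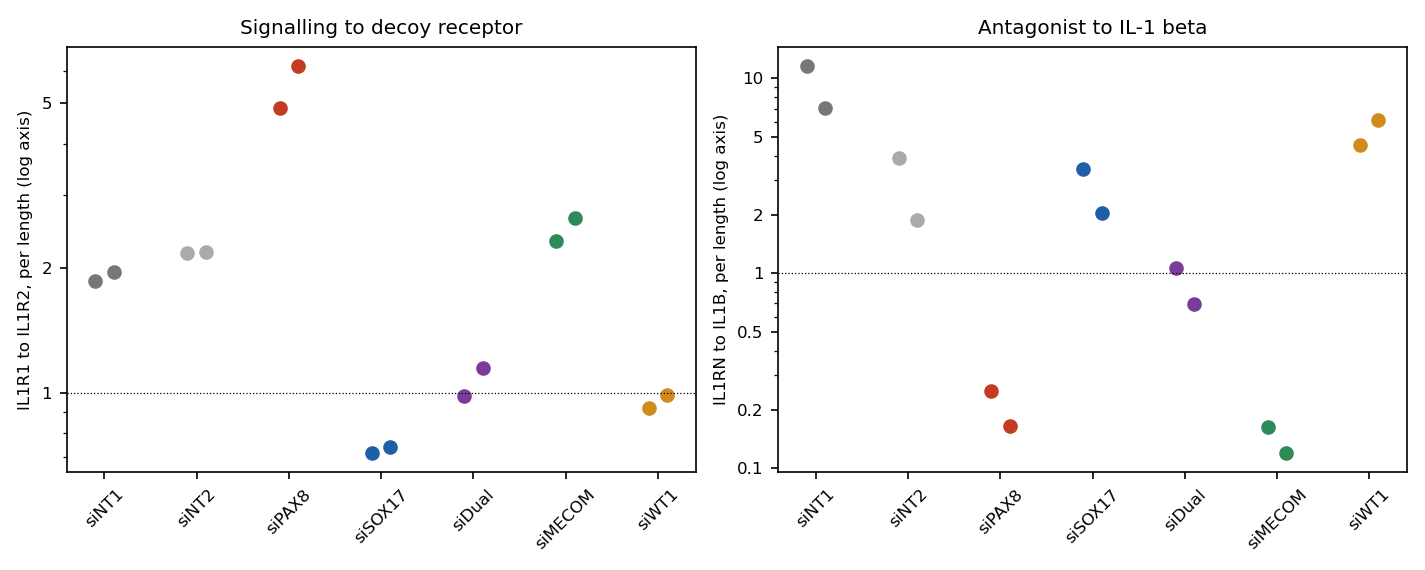
Ratio of IL1R1 to IL1R2 (left) and of IL1RN to IL1B (right) per gene length, on log axes, with 1 point per library. The dotted line marks equal levels. The receptor ratio is highest in siPAX8 (4.88 and 6.15) and lowest in siSOX17 (0.716 and 0.738).

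Of 13 other ligands and receptors, 6 passed the filter. This list and the lists that follow were chosen with earlier results of these data known. Their counts beside the shares of all genes are therefore a description, and no list was tested as a set. IL36RN, the antagonist of the IL-36 receptor and a neighbour of IL1RN, had 4 counts over the 4 controls, all in siNT1, against 81 in siSOX17, 55 in siDual, 16 in siPAX8, 16 in siMECOM and 7 in siWT1. IL18R1, the ligand-binding chain of the IL-18 receptor, was at 1.66 to 2.05 CPM in the controls. It was at 0.127 to 0.357 CPM in siPAX8 (-2.93 ± 0.33), 0.451 to 0.572 in siSOX17 (-1.84 ± 0.30) and 0.186 to 0.293 in siDual (-2.91 ± 0.34), and was called lower in each. It also fell in siMECOM (-0.65 ± 0.24, adjusted p = 0.0457). SIGIRR, an inhibitory receptor, fell in siPAX8 (-0.96 ± 0.11), siSOX17 (-0.59 ± 0.11), siDual (-0.86 ± 0.11) and siMECOM (-0.65 ± 0.11). Among the genes on chromosome 2 from IL1A to PAX8, 4 that are not members were tested, PAX8 and its antisense gene among them. In siPAX8 1 of the 4 was called higher and 2 lower, where 26.9% of all genes were higher and 25.4% lower (52.2% in all). The 2 lower were PAX8 (-2.52 ± 0.08), the target of that pool, and PAX8-AS1 (-2.03 ± 0.09), which overlaps it. They therefore say nothing of the neighbourhood, and the higher gene was IL36RN on its 16 counts. In siSOX17 4 were higher and 0 lower, where 27.2% were higher and 25.5% lower (52.6%).

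Downstream of the receptors, 18 signalling genes were tested. In siDual 7 rose and 8 fell (56.2% of all genes called), in siMECOM 5 and 4 (32.6%), and in siWT1 3 and 5 (37.5%). In siPAX8 6 rose and 8 fell (52.2%), and in siSOX17 6 and 7 (52.6%). The adaptor MYD88 rose in siMECOM (0.94 ± 0.06), from 28.1 to 30.7 CPM in the controls to 54.9 to 57.9 CPM. Its level was also above every control in siPAX8 (47.4 to 48.9 CPM), siDual (51.3 to 51.8), siSOX17 (40.8 to 41.0) and siWT1 (31.8 to 33.1). The kinase gene IRAK2 rose in siPAX8 (1.99 ± 0.41), siSOX17 (2.07 ± 0.42) and siDual (2.13 ± 0.41), and IRAK3, a negative regulator, fell in those groups (-2.16 ± 0.34, -1.05 ± 0.30 and -2.24 ± 0.36) and in siMECOM (-0.95 ± 0.28). Both genes were low throughout. Mean IRAK2 was 0.127 CPM in the controls, 0.512 in siPAX8, 0.542 in siSOX17 and 0.553 in siDual (SD 0.331). Mean IRAK3 was 0.648 CPM in the controls.

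Of 18 genes of processing and release, 10 were called higher in each of siPAX8, siSOX17 and siDual, with 3, 2 and 3 lower. Over all genes, 26.9%, 27.2% and 28.9% were called higher and 25.4%, 25.5% and 27.3% lower in those groups. In siMECOM 5 rose and 4 fell (16.5% and 16.1% of all genes), and in siWT1 2 rose and 7 fell (17.7% and 19.8%). NLRP3, the inflammasome sensor, rose from 0.1 to 0.293 CPM in the controls to 3.73 to 4.51 in siSOX17 (4.36 ± 0.24) and 4.95 to 5.20 in siDual (4.66 ± 0.23), with 0.807 to 1.05 in siPAX8 (2.21 ± 0.30). The adaptor gene PYCARD fell in siPAX8 (-1.45 ± 0.21), siDual (-0.79 ± 0.20) and siMECOM (-0.51 ± 0.18). CASP1, which encodes the protease that matures IL-1 beta and IL-18, was at 0.704 to 0.782 CPM in the controls and highest in siPAX8, at 1.44 to 1.52 CPM. It stood at 0.955 to 0.970 CPM in siSOX17, 0.852 to 1.26 in siDual and 0.528 to 0.779 in siMECOM. CASP1 rose in siWT1, at 1.07 to 1.11 CPM (0.56 ± 0.22, adjusted p = 0.0463). NLRP3 was highest with both the SOX17 and PAX8 pools, whereas IL1B was highest with the PAX8 pool alone.

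The NF-kB list had 19 genes tested. In siMECOM 0 rose and 9 fell (16.5% and 16.1% of all genes), the largest decreases being in BCL3 (-1.30 ± 0.14) and NFKBID (-0.80 ± 0.12), and its median log2 fold change was -0.33 beside 0.01 over all genes. NFKBID also fell in siPAX8 (-1.25 ± 0.12) and siDual (-1.09 ± 0.12), and BCL3 in siSOX17 (-0.77 ± 0.13). In siDual 5 genes of the list rose and 9 fell (56.2% of all genes called), in siWT1 4 and 4 (37.5%), in siPAX8 7 and 6 (52.2%) and in siSOX17 5 and 6 (52.6%). BIRC3, an NF-kB target that encodes an inhibitor of apoptosis, rose in siPAX8 (1.28 ± 0.27), siSOX17 (2.02 ± 0.27) and siDual (1.41 ± 0.27).

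Of 26 genes known to be induced by IL-1 that were tested, 12 rose and 5 fell in siPAX8, 8 rose and 7 fell in siSOX17, 9 rose and 13 fell in siDual, 4 rose and 15 fell in siMECOM, and 0 rose and 15 fell in siWT1. The shares of all genes called were 52.2%, 52.6%, 56.2%, 32.6% and 37.5% in that order. Called higher were 26.9%, 27.2%, 28.9%, 16.5% and 17.7%, and called lower 25.4%, 25.5%, 27.3%, 16.1% and 19.8%. The medians were 0.39, 0.06, -0.32, -0.47 and -0.55. PTGS2, the inducible cyclooxygenase, rose with IL1B in siPAX8 (1.44 to 2.41 CPM against 0.0707 to 0.220 in the controls, 3.89 ± 0.32) and siDual (1.12 to 1.51 CPM, 3.35 ± 0.34), but was within the control range in siMECOM (0.0880 to 0.195 CPM). The chemokine gene CXCL1 was lower in siPAX8 (-1.82 ± 0.26), siDual (-2.58 ± 0.28), siMECOM (-1.80 ± 0.26) and siWT1 (-2.99 ± 0.28), and in siSOX17 it lay at 67.3 to 81.3 CPM against 126 to 150 in the controls. CXCL8 fell in siWT1 (-2.21 ± 0.27), from 116 to 173 CPM in the controls to 25.6 to 42.9 CPM. It was also below every control in siDual (45 to 76.6 CPM) and siSOX17 (108 to 112 CPM). IL6 fell in siMECOM (-2.84 ± 0.21), from 26.9 to 56.5 CPM to 4.2 to 6.20 CPM, in the group where IL1B rose and IL1RN fell. IL6 was above every control in siPAX8 (57.1 to 93.8 CPM) and below every control in siSOX17 (21 to 23.9) and siDual (14.9 to 20.2). The collagenase gene MMP1 rose in siMECOM (2.95 ± 0.47) on 57 counts against 14 in the 4 controls, and in siPAX8 (2.29 ± 0.52) on 34 counts. Interferon-stimulated genes had 14 of 19 higher and 2 lower in siMECOM, where 16.5% of all genes were higher and 16.1% lower. Counts were 9 and 1 in siSOX17 (27.2% and 25.5% of all genes) and 5 and 7 in siDual (28.9% and 27.3%). They were 5 and 5 in siPAX8 (26.9% and 25.4%) and 4 and 4 in siWT1 (17.7% and 19.8%). The controls also carried siRNA, so a response to transfected RNA that all pools share would not show here.

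**Figure D4:**
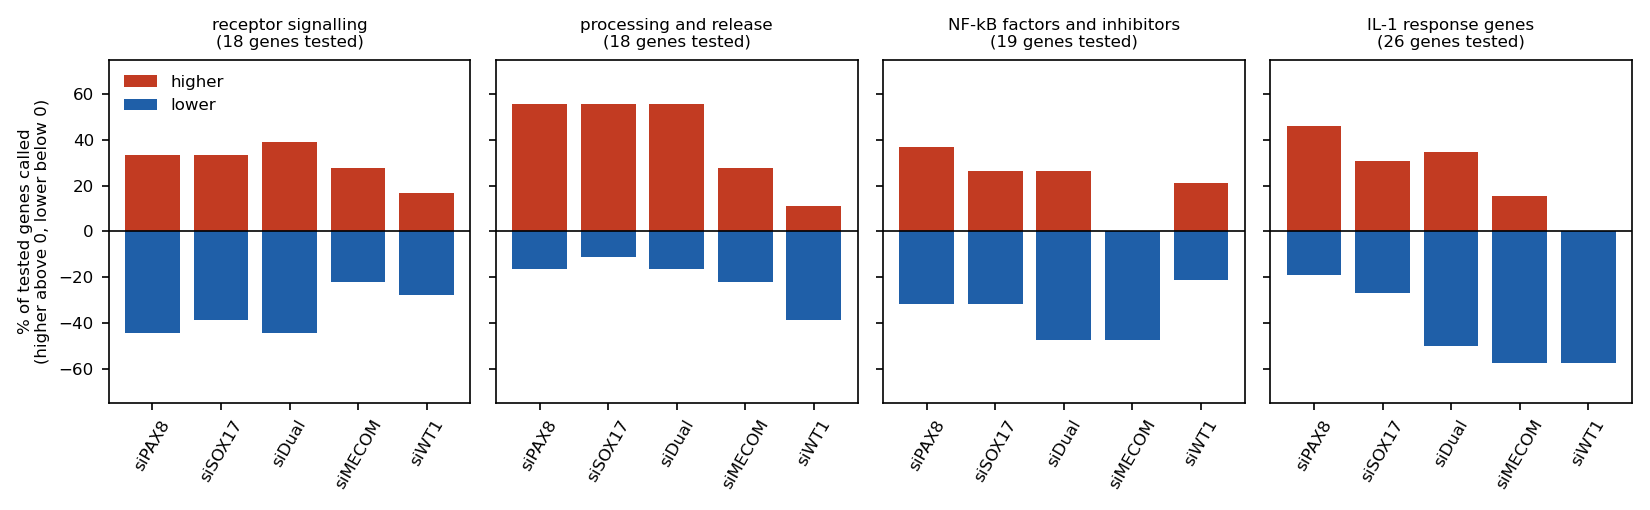
Percent of tested genes called higher (above 0) or lower (below 0) than the controls by edgeR in 4 lists, for each of the 5 pools. In siMECOM 0 of 19 NF-kB genes rose and 9 fell, where 16.5% of all genes were called higher and 16.1% lower. In siWT1 0 of 26 IL-1 response genes rose and 15 fell, where 17.7% of all genes were called higher and 19.8% lower. The share of all genes called is not drawn and ran from 32.6% in siMECOM to 56.2% in siDual.

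Patterns over the 14 libraries were compared by Pearson's r of log2 CPM, as a description over libraries that share groups and controls. Among 20945 other tested genes with a symbol, IL33 was followed most closely by IFT57 (r = 0.978) and NTN1 (0.967), IL1B by LINGO2 (0.971) and PI4K2A (0.964), and IL1A by TCIM (0.937) and FUT8 (0.928). Within the family, IL1A tracked IL33 (0.87) and IL1B (0.80), IL1B tracked IL1RAP (0.83), and IL1R2 ran opposite to IL1B (-0.91) and IL1A (-0.84). IL1B and IL33 had an r of 0.51.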

How the data were processed

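The 14 OVCAR4 RNA-seq libraries were grouped by sample title. The deposited values were raw whole-number read counts per gene on hg38, with the gene length in a further column; per the submitters' processing notes the authors used STAR 2.5.1b and featureCounts 1.6.3. Settings, annotation release and strand are not given in the sources used here. Of 58219 genes, 57881 were named through GENCODE 29. The edgeR 4.0.16 function filterByExpr (at least 10 counts, total at least 15) kept 21032 genes. CPM used TMM-scaled library sizes. A quasi-likelihood model with 1 coefficient per group and 7 residual degrees of freedom compared each pool with the mean of siNT1 and siNT2. Benjamini-Hochberg adjusted p-values under 0.05, over every gene tested, were called. Dividing a log2 fold change by the root of its F statistic gave the SE.

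Members and lists came from general knowledge and were chosen with earlier results of these data known. Named genes were all members, the targeted genes, at most the 2 largest called increases and decreases of each list and pool, and the genes closest in pattern, not all of which are named. The listed genes whose CPM or counts are given were picked from these after their values were seen. Alternative settings were a DESeq2 1.42.0 test, edgeR with DESeq2 size factors, all genes unfiltered, at least 50 counts in 2 libraries, either control pool alone, a replicate block, and leaving out each library. The model was tested on simulated data. Replicates of every group differed by more than sampling noise.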

Additional observations from a re-analysis of the deposited data

How the results depend on the processing

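Over 656 refits of single members in the tested comparisons, 642 kept direction and call, or stayed uncalled, 5 lost a call, 9 gained one and 0 reversed a called value. Of 336 refits in siPAX8 and siSOX17, 320 moved by less than the SD between replicates. Members called were 6 to 7 in siDual, 5 in siMECOM, 3 to 4 in siWT1 and 0 to 2 between the control pools on leaving out 1 library. Genes called ran from 4096 to 7044 in siMECOM and from 11 to 77 in siNT1 against siNT2. With every library in, 56.2% of all genes tested were called in siDual, 32.6% in siMECOM and 37.5% in siWT1. The number of genes called in siNT1 vs siNT2 was 63, with 1 member. It was 232 genes without a filter, 153 with DESeq2 and 150 with the replicate block, and 2 members in each case, IL1RAP and IL1RN. Titles share replicate numbers, and 13 of 21 pairs of groups had replicate differences correlated above 0.1 (r from -0.17 to 0.60). Among siNT1, siPAX8, siDual and siMECOM r was 0.31 to 0.60. The siNT2 difference had an r of 0.50 with siWT1 and 0.40 with siSOX17, but -0.16 with siPAX8 and -0.17 with siMECOM. Some groups thus shared part of their replicate difference. The main model did not take the numbers as pairs and leaves that part in the spread between libraries. The replicate block was an alternative setting only. The replicate block changed no other count of members. In siPAX8 and siSOX17 leaving out 1 library gave 7 and 2 to 3 members past 2-fold. Counts of a few per library limit IL1RL1 and IL33 in siSOX17, and 2 libraries a group limit every SE.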
